A study of Rattus norvegicus with 8 samples.

Results

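Sterol synthesis, uptake and efflux genes were followed in primary rat aortic smooth muscle cells after angiotensin II (AngII), a peptide hormone that constricts vessels. The set was given as 35 named genes of sterol synthesis, sterol sensing, fatty acid synthesis, efflux and storage. A gene was included when a locus of the RNA table carried RefSeq accessions that mapped to that symbol and no other. Of the 35 genes, 32 had such a locus, among 30922 loci with a usable estimate. Mvk, Srebf1 and Fasn had none and were not analysed here. A locus was counted as expressed at 1 FPKM or more in at least 1 library (FPKM is fragments per kilobase of transcript, scaled to the mapped fragments of the library). By that rule 31 genes were expressed, and Nr1h3 was not.

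The treated cells received 0.1 uM AngII for 3 h after overnight withdrawal of fetal bovine serum. The control cells are labelled as untreated, and whether they were also starved is not stated, so starvation and AngII cannot be told apart. All samples were primary cultures of vascular smooth muscle taken from Sprague-Dawley rats at the thoracic aorta; whether animals were pooled is not stated. RNA, H3K4me3 and H3K36me3 were each measured in 1 AngII library and 1 control library. H3K4me3 marks promoters, and H3K36me3 marks transcribed gene bodies. No replicate library exists on either side, so nothing could be tested and no difference has a replicate check.

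Smooth muscle markers were high in both libraries, with 7 of 8 expressed and Tagln at 5244 FPKM after AngII and 5103 FPKM in control. No endothelial marker of 5 with a locus and no adipocyte marker of 5 with a locus was expressed. Of 10 macrophage and leukocyte markers 2 were expressed, 4 were listed at 0 in both libraries (Ptprc, Adgre1, Itgam and Mrc1), and the summed level was 12.5 FPKM after AngII and 11.6 FPKM in control. Adventitial fibroblast markers summed to 134 FPKM after AngII and 172 FPKM in control, with 5 of 6 expressed, and their part in the results was not tested. In such bulk samples, fewer cells of a type and less RNA per cell cannot be told apart.

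Cells make cholesterol from acetyl-CoA through mevalonate, isoprenoids, squalene and lanosterol. When membrane sterol is low, Scap escorts the transcription factors Srebf1 and Srebf2 to the Golgi, where they are released by cleavage and switch on the synthesis genes; Insig1 and Insig2 hold Scap back when sterol is plentiful. Excess sterol is esterified, exported by Abca1 and Abcg1, and sensed as oxysterols by the liver X receptors Nr1h2 and Nr1h3. Loading of smooth muscle cells with cholesterol is a feature of atherosclerotic vessels.

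The sterol genes lay on both sides of an equal level in the AngII and control libraries. Msmo1 and Idi1 were at least 2-fold higher after AngII, and Abca1 and Dhcr7 were more than 2-fold lower in the deposited values but not with a pseudocount of 1 FPKM. The log2 ratio used throughout is log2((AngII FPKM + 1)/(control FPKM + 1)), a scale that understates differences of weakly expressed genes. On that scale the 2 higher genes made up 6.45% of the 31 expressed members, against 3.83% of all 8800 expressed loci with exactly 1 symbol, and 0 of the 31 were at least 2-fold lower against 3.00% of those loci. With a pseudocount of 0.1 the counts were 2 higher, against 5.06% of those loci, and 2 lower (Abca1 and Dhcr7), against 7.80%. These counts are too small to be read against those shares. The median log2 ratio of the members was 0.02 (range -0.90 to 2.18), with 16 above 0 and 15 below. Over the 8800 loci the median was -0.22 with an interquartile range of -0.47 to 0.08, and 30.3% lay above 0.

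The authors deposited a lower and an upper bound with each FPKM value, and these lie 2 SD either side of it. The bounds did not overlap for Msmo1 and Idi1, both higher after AngII, and overlapped for every other member. Over the 8800 loci, AngII bounds lay wholly above control bounds for 2.98% and wholly below for 2.17%. The relative SD of the 31 expressed members had a median of 21.0% in both libraries, from 11.1% (Acly) to 27.7% (Ebp) after AngII and from 10.9% (Acly) to 28.1% (Ebp) in control. At the median precision, bounds separate only from about 2.45-fold. The 2-SD interval of the log2 ratio, which combines both errors, is the less strict criterion and was set beside the bounds after the values were seen. It lay wholly above 0 for 3 of the 31 members (Msmo1, Idi1 and Sqle), against 5.69% of the 8800 loci, and wholly below 0 for 3 (Abca1, Dhcr7 and Insig2), against 8.65%. The bounds are model errors and hold no variation between cultures.

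Values are given as deposited, but the median of all expressed loci was shifted by -0.24 on the log2 scale. Scaling the AngII values by 1.21 centred that median on 0. The count at least 2-fold higher was then 4 of 31 (Idi1, Sqle, Msmo1 and Insig1), against 5.84% of the 8800 loci, and the count lower was 0, against 1.25%. Fdps and Mylip were the members whose sign changed, from just below 0 to above it.

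**Figure D1:**
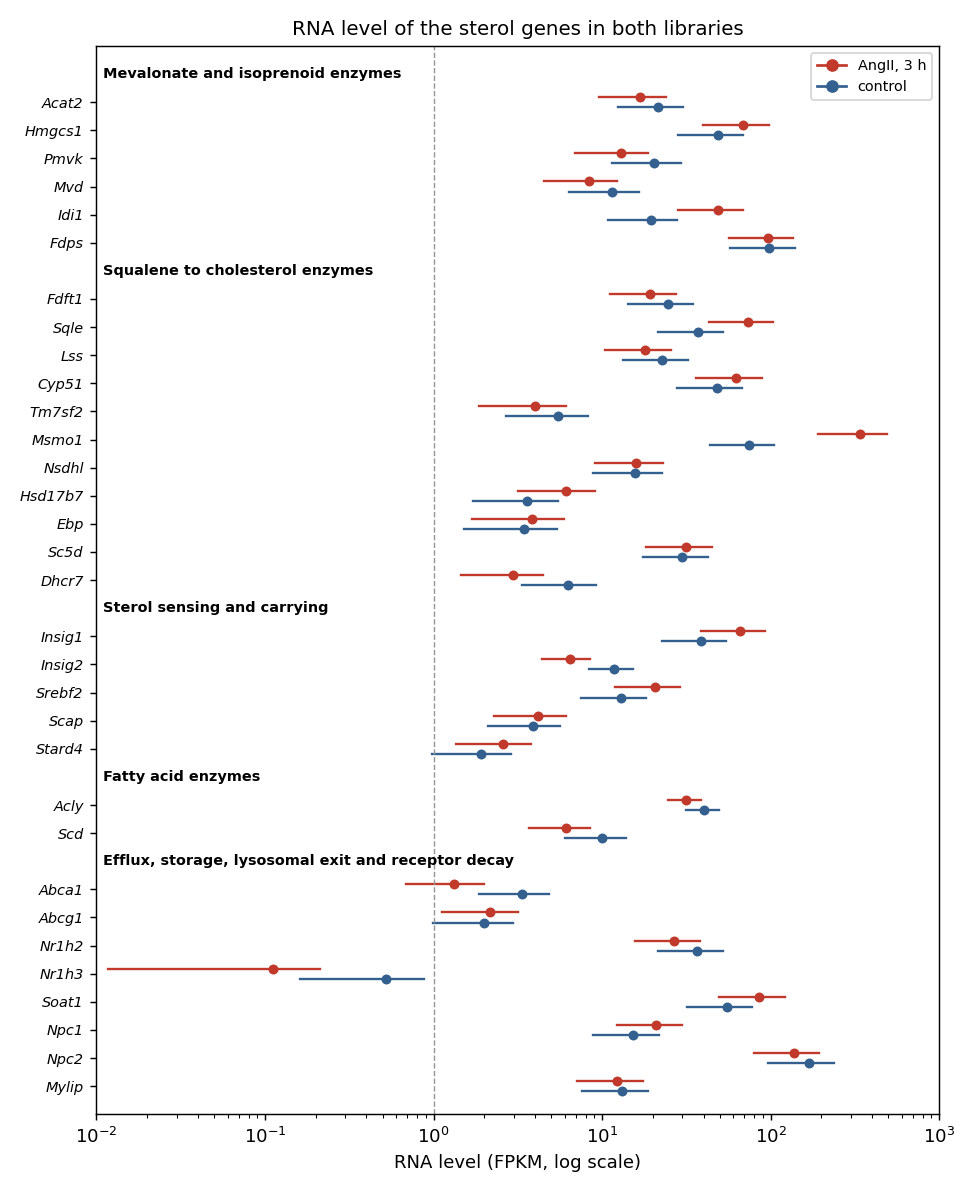
RNA level of the 32 genes with a locus in the AngII library (red) and the control library (blue), in FPKM on a log scale, grouped by role. Bars are the bounds deposited by the authors, and the dashed line is the 1 FPKM minimum. The Msmo1 bars (190 to 492 FPKM after AngII, 43.5 to 105 FPKM in control) and the Idi1 bars lie apart.

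In the mevalonate and isoprenoid steps, 1 of 6 expressed genes was at least 2-fold higher and 0 lower. Over the 8800 loci 3.83% were higher and 3.00% lower, and 6 genes are too few to be read against those shares. Idi1, which isomerises the basic isoprenoid unit, stood at 48.5 FPKM after AngII (bounds 28.2 to 68.8), against 19.4 FPKM in control (10.8 to 28.0). Its log2 ratio was 1.28, with a 2-SD interval of 0.43 to 2.13 from the deposited bounds, and ranked 217 of 8800. Idi1 is 1 of 7 loci listed over the same 528 kb of chromosome 17 (72100882 to 72628890 in rn4), with its paralog Idi2 among them, so the division of reads between these copies is uncertain and the marks of that interval are not those of Idi1 alone.

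The steps on either side of Idi1 lay closer to 0, and no difference between genes was tested. Hmgcs1, which makes HMG-CoA, stood at 68.9 FPKM after AngII and 48.6 FPKM in control (0.49). Pmvk, the kinase of phosphomevalonate on chromosome 2 (181655657 to 181665214), stood at 12.9 FPKM after AngII (bounds 6.94 to 18.8) and 20.4 FPKM in control (11.4 to 29.4), a log2 ratio of -0.63. Mvd, the decarboxylase just upstream of Idi1, stood at 8.42 FPKM after AngII and 11.5 FPKM in control (-0.41), in an interval of 8 loci. Fdps, the farnesyl diphosphate synthase just downstream, stood at 96.4 and 98.1 FPKM in AngII and control (-0.03). The thiolase Acat2 stood at 16.7 FPKM after AngII and 21.4 FPKM in control (-0.34), in an interval shared with Tcp1. The 4 members below 0 and the 2 above it thus interleave along this stretch of the pathway, and all but Idi1 had overlapping bounds.

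Among the 11 squalene to cholesterol enzymes, Msmo1 had the largest difference of all members. Msmo1, the methyl sterol oxidase that starts removal of the paired methyl groups of lanosterol-derived sterols, stood at 341 FPKM after AngII (bounds 190 to 492), against 74.3 FPKM in control (43.5 to 105). That is a 4.59-fold ratio of the deposited values and a log2 ratio of 2.18 (2-SD interval 1.32 to 3.05), ranked 79 of 8800. It was the most abundant expressed member after AngII and the third in control, behind Npc2 and Fdps. Its locus has coordinates of its own on chromosome 16 (26698323 to 26716247 in rn4). A second locus of the same symbol, 720 bp away, stood at 1.20 FPKM after AngII and 0.589 FPKM in control, and summing both left the log2 ratio at 2.18.

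Sqle, the squalene epoxidase, fell just short of the 2-fold rule. It stood at 73.5 FPKM after AngII (bounds 42.9 to 104), against 37.0 FPKM in control (21.6 to 52.5), a log2 ratio of 0.97 (2-SD interval 0.14 to 1.80) at rank 345 of 8800 on chromosome 7 (96096896 to 96111772). Hsd17b7, a ketosteroid reductase that works in the same demethylation complex as Msmo1, stood at 6.14 FPKM after AngII (bounds 3.15 to 9.14) and 3.59 FPKM in control (1.71 to 5.46), a log2 ratio of 0.64; its interval on chromosome 13 (85771543 to 85796008) holds a second listed locus. Nsdhl, the dehydrogenase of that complex, stood at 16.0 and 15.7 FPKM in AngII and control (0.02). The complex was therefore measured with a large difference at 1 enzyme and overlapping bounds at the other two.

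The remaining enzymes of this arm lay closer to 0 or below it. The lanosterol demethylase Cyp51 stood at 62.2 FPKM after AngII and 47.9 FPKM in control (0.37). The isomerase Ebp (0.11) and the desaturase Sc5d (0.07) differed little from 0. Squalene synthase Fdft1 (-0.33), lanosterol synthase Lss (-0.33) and the sterol reductase Tm7sf2 (-0.38) were on the other side of 0, with values near the middle of all loci. Dhcr7, the reductase that completes cholesterol, was the lowest of the arm. It stood at 2.95 FPKM after AngII (bounds 1.46 to 4.45), against 6.26 FPKM in control (3.36 to 9.15), a log2 ratio of -0.88 (2-SD interval -1.67 to -0.08), and it lies on chromosome 1 (204245561 to 204258913). The list of 11 had a median log2 ratio of 0.07, with 7 members above 0, 1 of 11 at least 2-fold higher and 0 lower. Over the 8800 loci the median was -0.22, with 30.3% above 0, 3.83% higher and 3.00% lower. A list of 11 is too short to be read against those shares.

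**Figure D2:**
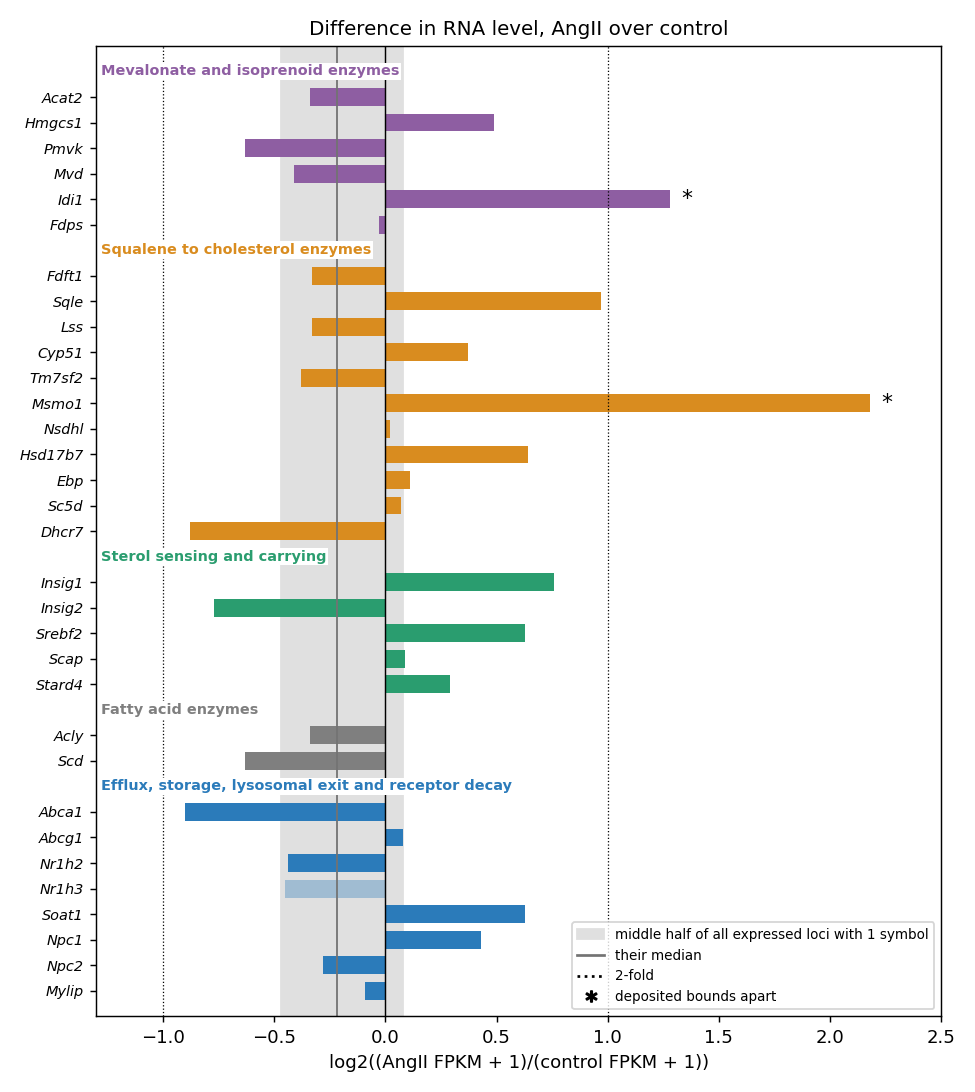
Log2 ratio of AngII over control for each gene in pathway order, with a pseudocount of 1 FPKM; the paler bar (Nr1h3) is below the expression minimum. The grey band is the interquartile range of all 8800 expressed loci with 1 symbol (-0.47 to 0.08), and stars mark Idi1 and Msmo1, whose bounds were apart.

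The sensing genes included a pair of paralogs on opposite sides of 0. Insig1, itself a target of the sterol-regulated factors, stood at 65.8 FPKM after AngII (bounds 38.4 to 93.2), against 38.6 FPKM in control (22.6 to 54.6), a log2 ratio of 0.76 (2-SD interval -0.08 to 1.59; chromosome 4, 2577467 to 2585682). Insig2, which also retains Scap in the endoplasmic reticulum, stood at 6.47 FPKM after AngII (bounds 4.41 to 8.53), against 11.8 FPKM in control (8.33 to 15.2), a log2 ratio of -0.77 (2-SD interval -1.33 to -0.22; chromosome 13, 33330355 to 33357866). The level of Insig1 was 10.2 times that of Insig2 after AngII and 3.28 times in control. The bounds of each gene overlapped between libraries, those of Insig2 only at their ends.

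Srebf2, the factor that drives most cholesterol synthesis genes, stood at 20.5 FPKM after AngII (bounds 12 to 29.1), against 12.9 FPKM in control (7.53 to 18.3), a log2 ratio of 0.63 (2-SD interval -0.17 to 1.43). Its interval on chromosome 7 (120522510 to 120580212) also lists the microRNA gene Mir33, which lies in an intron of Srebf2. The escort protein Scap stood at 4.18 and 3.87 FPKM in AngII and control (0.09), and the sterol carrier Stard4 at 2.58 and 1.92 FPKM (0.29). This group of 5 had a median log2 ratio of 0.29, with 4 of 5 above 0 and none past 2-fold in either direction. Over the 8800 loci 30.3% lay above 0, 3.83% were at least 2-fold higher and 3.00% lower. A group of 5 is too small to be read against those shares.

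The fatty acid enzymes were lower in the AngII library without passing 2-fold, and 6137 of the 8800 loci also lay below 0. Acly, which supplies cytosolic acetyl-CoA, stood at 31.5 FPKM after AngII and 40.3 FPKM in control (-0.34, and -0.07 when centred). The desaturase Scd stood at 6.08 FPKM after AngII and 9.96 FPKM in control (-0.63, and -0.39 when centred). It lies within an interval of 11 loci that also lists its paralog Scd2. A further list of SREBP-linked fatty acid genes had 12 of 13 members expressed, of which 11 lay below 0. With a pseudocount of 1 FPKM the list held 0 genes past 2-fold either way, against 3.83% of the 8800 loci higher and 3.00% lower. Its median log2 ratio was -0.30, near the -0.22 of all loci, and its largest difference was that of Fads1, a fatty acid desaturase (2.47 FPKM after AngII and 5.39 FPKM in control, -0.88).

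Among the genes of efflux and storage, Abca1 had the lowest log2 ratio of all expressed members. Abca1, which exports cholesterol to lipid-poor apolipoprotein, stood at 1.33 FPKM after AngII (bounds 0.685 to 1.98), against 3.34 FPKM in control (1.87 to 4.81), a log2 ratio of -0.90 (2-SD interval -1.53 to -0.26). It lies on chromosome 5 (70493356 to 70583729). With a pseudocount of 0.1 its log2 ratio was -1.26 and that of Dhcr7 -1.06, which made these genes the 2 members past 2-fold lower. Abcg1, the transporter that passes sterol to mature lipoprotein, stood at 2.15 FPKM after AngII (bounds 1.13 to 3.18) and 1.98 FPKM in control (0.986 to 2.97), a log2 ratio of 0.08 (chromosome 20, 9390437 to 9461806). The level of Abcg1 was 1.62 times that of Abca1 after AngII and 0.592 times in control.

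The receptor Nr1h2 stood at 26.8 FPKM after AngII and 36.6 FPKM in control (-0.44), in an interval of 99 loci. Its relative Nr1h3 stood at 0.111 FPKM after AngII (bounds 0.0117 to 0.211) and 0.520 FPKM in control (0.161 to 0.879). Soat1, which esterifies cholesterol for storage and was singled out once its values were known, stood at 85.2 FPKM after AngII (bounds 49.7 to 121) and 54.8 FPKM in control (32.0 to 77.5), a log2 ratio of 0.63. The lysosomal exit proteins were on opposite sides of 0, with Npc1 at 21.0 FPKM after AngII and 15.3 FPKM in control (0.43) and Npc2 at 138 and 168 FPKM (-0.28). Mylip, the ubiquitin ligase that degrades lipoprotein receptors, stood at 12.3 and 13.2 FPKM in AngII and control (-0.09, and above 0 when centred). The 7 expressed genes of the group had a median of -0.09 and none past 2-fold with a pseudocount of 1 FPKM. Over the 8800 loci the median was -0.22, with 3.83% at least 2-fold higher and 3.00% lower, and 7 genes are too few to be read against those shares.

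Other genes of the pathway, 70 in all, gave 0 of 55 expressed members past 2-fold in either direction with a pseudocount of 1 FPKM, against 3.83% of the 8800 loci higher and 3.00% lower. Their median log2 ratio was -0.27, with 12 above 0 (21.8%) and 43 below, beside 30.3% of all loci above 0. On that log2 scale, the largest difference after Fads1 was that of the cholesterol ester hydrolase Nceh1 (6.06 FPKM after AngII and 11.4 FPKM in control, -0.81). Next came Erg28, a scaffold of sterol synthesis enzymes known from yeast (8.06 and 14.2 FPKM, -0.74), and Rxrb, a partner of the liver X receptors (7.78 and 13.6 FPKM, -0.74, in an interval of 24 loci). In the deposited values Fads1 was more than 2-fold lower after AngII. So was Cyp27a1, near the FPKM minimum and named after its values were seen (0.327 FPKM after AngII and 1.06 FPKM in control). No share of all loci is given here for deposited values. None of these had bounds apart. The proteases, ligases and coat proteins that process the sterol-regulated factors had 12 members expressed and a median of -0.08.

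**Figure D3:**
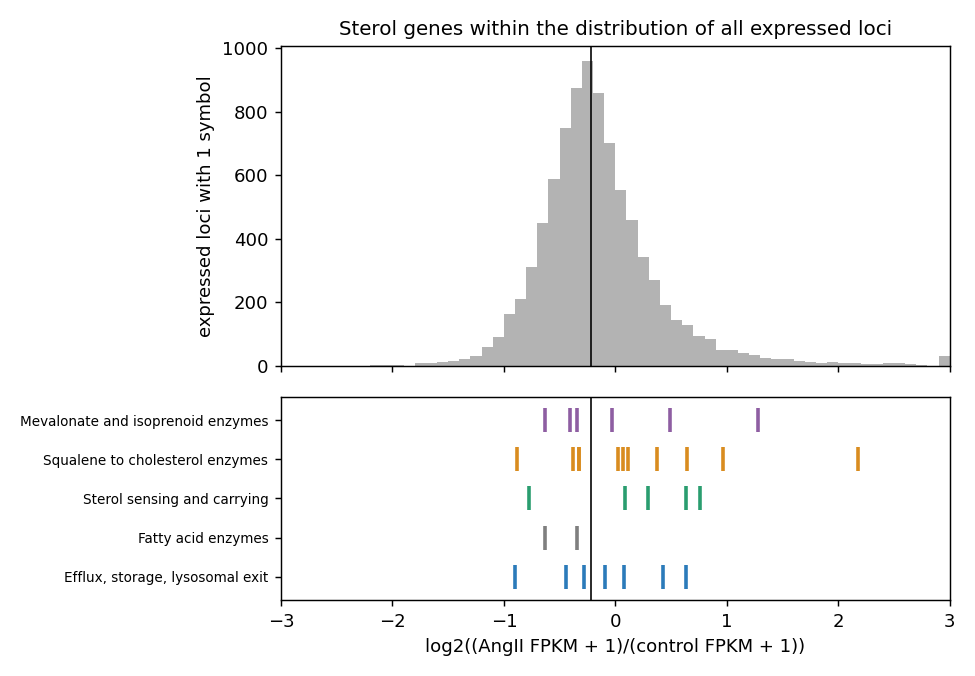
Number of expressed loci with exactly 1 symbol by log2 ratio (bins of 0.1, values beyond 3 in either direction drawn in the end bins), above the expressed sterol genes as ticks by role. The vertical line is the median of all loci at -0.22; the ticks spread on both sides of it, and Msmo1 at 2.18 stands furthest right.

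Promoter sequences are shown for the 2 genes past 2-fold, Msmo1 and Idi1, for Insig1, and for Abca1, which had the lowest log2 ratio. They run from 250 bases before to 50 after the RefSeq start in GRCr8, a later assembly than that of the marks, at chr16:29746863-29747162 (plus strand), chr17:66547475-66547774 (minus strand), chr4:8057720-8058019 (minus strand) and chr5:72596424-72596723 (minus strand). Capitals mark CCAAT, the letters bound by NF-Y, a factor that works with the sterol-regulated factors, on either strand (ATTGG on the opposite one).
Msmo1: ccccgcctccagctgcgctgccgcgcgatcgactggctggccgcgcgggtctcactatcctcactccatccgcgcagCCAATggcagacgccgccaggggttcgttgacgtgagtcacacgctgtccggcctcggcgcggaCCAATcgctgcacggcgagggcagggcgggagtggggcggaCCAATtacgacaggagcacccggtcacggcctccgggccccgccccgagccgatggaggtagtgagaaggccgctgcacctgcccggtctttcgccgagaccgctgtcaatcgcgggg
Idi1: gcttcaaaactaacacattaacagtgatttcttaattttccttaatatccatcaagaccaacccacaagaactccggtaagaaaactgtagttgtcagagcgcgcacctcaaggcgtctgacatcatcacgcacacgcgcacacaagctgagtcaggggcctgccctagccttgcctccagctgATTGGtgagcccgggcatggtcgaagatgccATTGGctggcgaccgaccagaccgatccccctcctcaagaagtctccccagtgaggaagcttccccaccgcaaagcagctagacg
Insig1: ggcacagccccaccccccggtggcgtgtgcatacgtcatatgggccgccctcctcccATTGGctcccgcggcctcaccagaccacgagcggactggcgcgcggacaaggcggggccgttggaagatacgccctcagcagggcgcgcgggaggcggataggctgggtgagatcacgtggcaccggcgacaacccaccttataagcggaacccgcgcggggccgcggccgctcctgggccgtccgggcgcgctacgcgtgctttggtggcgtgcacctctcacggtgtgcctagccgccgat
Abca1: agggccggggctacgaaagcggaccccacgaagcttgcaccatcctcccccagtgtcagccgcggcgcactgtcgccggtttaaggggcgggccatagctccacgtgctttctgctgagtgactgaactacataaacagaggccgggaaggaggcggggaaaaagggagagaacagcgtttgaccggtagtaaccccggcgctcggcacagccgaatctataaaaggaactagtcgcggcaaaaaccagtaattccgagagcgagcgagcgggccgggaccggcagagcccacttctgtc

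Msmo1 held 3 matches, Idi1 2, Insig1 1 and Abca1 none. These genes were chosen by their log2 ratios, and members with log2 ratios near or below 0 also held several matches, with 5 in Nsdhl, 3 in Npc2 and 2 in Mvd. Promoters were found for 27 of the 32 members, and 18 of these 27 (66.7%) held CCAAT, against 37.5% of all 33469 promoters of the same length and 38.1% of the 7277 promoters of expressed genes. None of the 35 matches overlapped a match of another motif searched. The GC box GGGCGG was in 21 of 27 (77.8%), against 33.1% of all and 64.7% of those of expressed genes. The E-box CACGTG was in 4 of 27 (14.8%; Insig1, Abca1, Sc5d and Scap), against 6.42% of all and 9.85% of those of expressed genes. A sterol response element spelled TCACNCCAC and a liver X receptor element of paired AGGTCA letters 4 bases apart had no match in these windows on either strand. They were in 1.12% and 0.00598% of all promoters. At such shares 27 windows would hold few or no matches, and other spellings of these elements were not searched. The absence therefore cannot be read as a lack of these elements. These are letter matches in reference sequence and no binding was measured.

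H3K4me3 was present at nearly all of these genes in both conditions. A region lay within 1 kb of the locus for 30 of 31 expressed members after AngII (96.8%, exact 95% interval 83.3 to 99.9) and for 31 of 31 in control (interval 88.8 to 100). Over the 8800 loci the shares were 92.8% after AngII and 92.7% in control. The 31 include 8 members whose interval is shared with other listed loci, where a mark need not belong to the member. Of the 23 with an interval of their own, 22 had a region after AngII and 23 in control. Over the 6883 loci of that kind the share was 90.8% in both conditions. The intervals given here and for H3K36me3 are Clopper-Pearson and treat a fixed list of genes as independent draws. They hold no variation between libraries and do not measure a difference between conditions. The exception was Dhcr7, whose single control region of 0.918 kb lay between -1.41 and -0.492 kb from the lower-coordinate end of its locus, and which had no region within 5 kb after AngII. Nr1h3, which was not expressed, had H3K4me3 within 1 kb in both conditions, but no region touched its locus.

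The width of the mark was set beside this after the values were seen. Of the 23 expressed members with an interval of their own, 22 had H3K4me3 in both conditions, and 1, Msmo1, had a summed width at least 2 times as large after AngII. Among 6208 loci of the same kind 2.53% did so, and 2.01% were narrower by at least as much, as 0 members were. At Msmo1 a single region of 12.3 kb covered 1.05 kb before the lower-coordinate end of the locus to 11.3 kb into it after AngII. In control a region of 3.37 kb reached 2.69 kb into the locus, and a second region of 1.22 kb lay from 5.91 to 7.13 kb. The ratio of summed widths was 2.68, ranked 58 of 6208, and 3.66 without the lowest-scoring 25% of regions. Over the 22 members the median ratio was 0.944, with 7 above 1 and 15 below, beside 1.05 for all 6208 loci. Sqle had 6.24 kb after AngII and 4.59 kb in control, Insig1 6.88 and 5.81 kb, and Insig2 4.16 and 2.75 kb, so Insig2 had a lower RNA value and a wider H3K4me3 sum in the AngII libraries. The bin behind the regions is 160 bp in the AngII list and 153 bp in the control list, and no source used here gives the depth of the ChIP libraries.

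**Figure D4:**
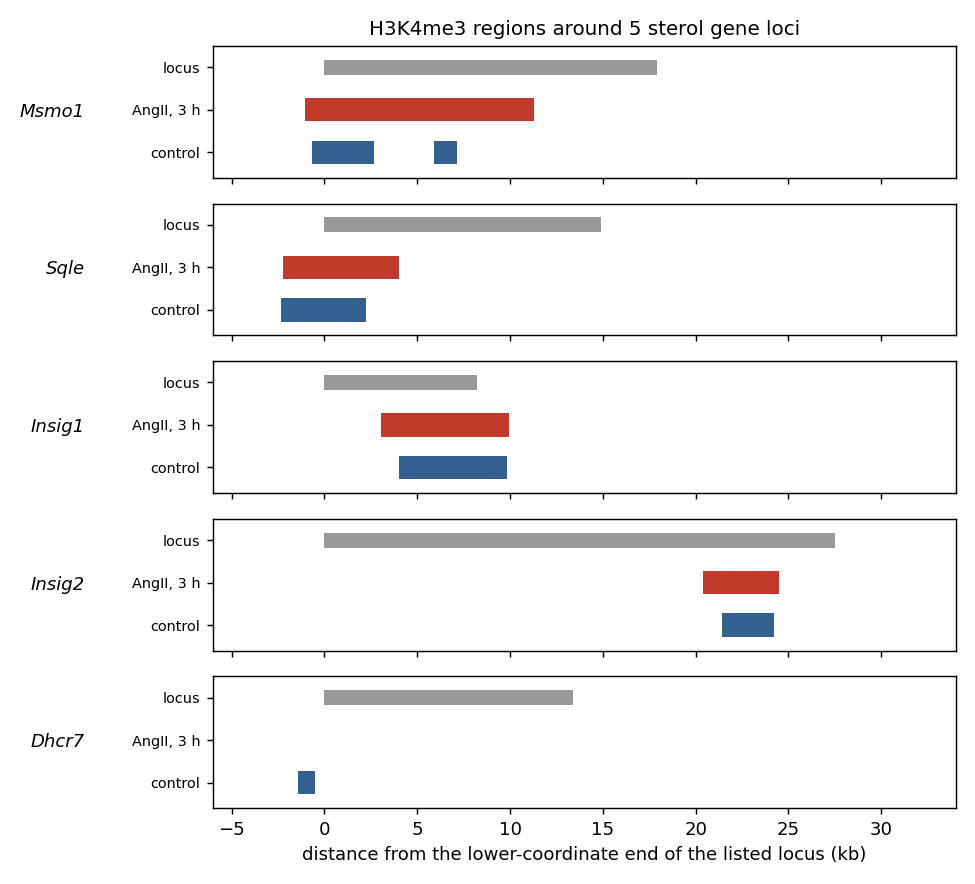
H3K4me3 regions (AngII red, control blue) around 5 listed loci (grey), by distance in kb from the lower-coordinate end of each locus; the strand of the loci is not given. At Msmo1 the region spans 12.3 kb after AngII and the control regions sum to 4.59 kb. At Dhcr7 a region outside the locus was listed in control and none after AngII.

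H3K36me3 lay on all 31 expressed members after AngII (exact 95% interval 88.8 to 100%) and on 29 in control (93.5%, interval 78.6 to 99.2). The shares over the 8800 loci were 97.3% after AngII and 95.6% in control. The mean share of the locus under the mark was 87.3% after AngII and 81.4% in control, with SD over genes of 22.3 and 30.5 points. Over all 8800 loci the means were 84.9% after AngII and 81.3% in control. Of the 23 members with an interval of their own, 23 carried the mark after AngII and 21 in control. Their mean shares were 91.6% after AngII and 84.7% in control. Among the 6883 loci of that kind, 96.7% carried it after AngII and 94.6% in control, with mean shares of 90.2% and 86.7%. Without the lowest-scoring 25% of regions, the mark lay on 27 of 31 members after AngII and on 29 in control. The mean shares were then 78.8% after AngII and 78.4% in control. The higher count after AngII was therefore not kept under this filter, and the means came close together. Cover of single genes is not given here with that filter. With all regions kept, Ebp and Abcg1 were the members with H3K36me3 after AngII only. Their cover was 57.4% and 23.0% of the locus, against 0% for both in control.

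Of the 23 expressed members with an interval of their own, 13 were wholly covered after AngII and 13 in control, 11 of them in both. Msmo1, Sqle and Insig1 were at 100% in both conditions, so a higher share could not have been seen there. Cover was higher by over 20 points after AngII in 3 of the 23 (13%): Ebp, Dhcr7 (100% after AngII and 70.6% in control) and Abcg1. Among 6883 loci of the same kind 7.90% did so. Cover was lower by over 20 points in 0 of the 23, against 2.44% of those loci. Insig2 was at 66.2% after AngII and 53.8% in control, and Abca1 at 84.8% and 66.8%. Dhcr7, Insig2 and Abca1 thus had lower RNA values and higher H3K36me3 cover in the AngII libraries than in the control ones. These genes were named after their values were seen. Among other members with lower RNA values, Pmvk, Fdft1, Fdps, Lss, Tm7sf2 and Npc2 were at 100% in both conditions and could not have been higher. Acly had lower cover after AngII (96.8%, against 100% in control). The differences in cover of Insig2 (12.4 points) and Abca1 (18 points) did not pass 20 points. Over the 6883 loci cover was also higher after AngII, by a mean of 3.43 points. A link between RNA and cover was not tested. Nr1h3 had none in either condition. Ebp had 1.92 kb of H3K4me3 after AngII and 3.06 kb in control beside its H3K36me3 after AngII only.

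**Figure D5:**
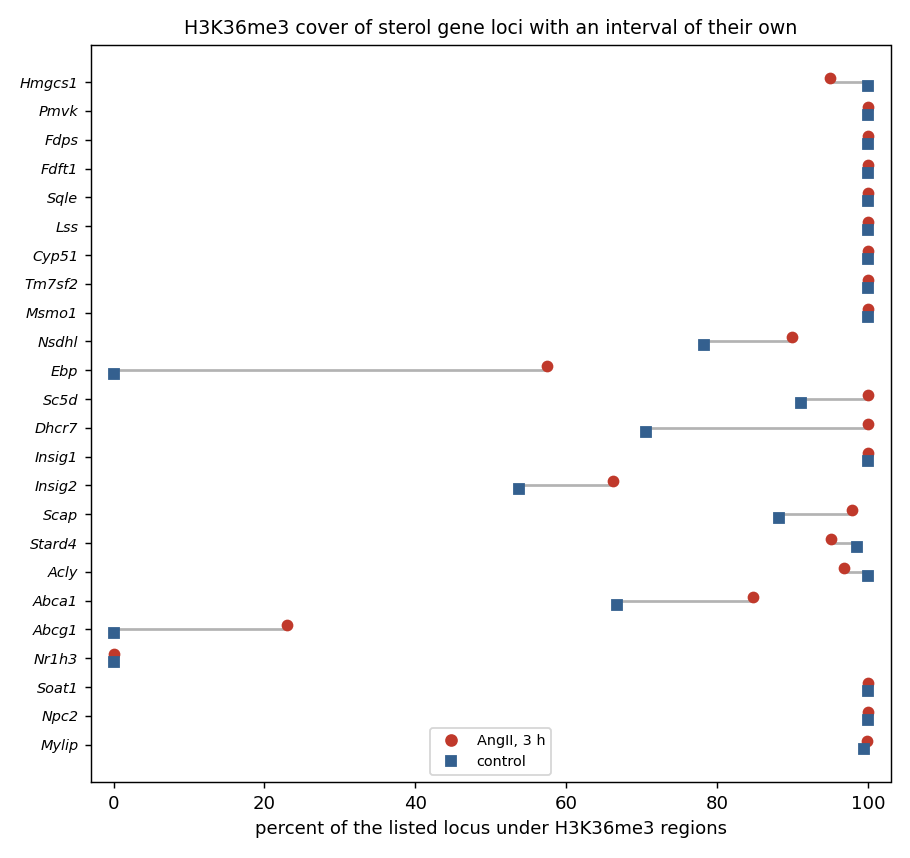
Percent of each listed locus under H3K36me3 regions after AngII (red circles) and in control (blue squares), for the 24 genes with coordinates that no other locus shares. Ebp (57.4% after AngII and 0% in control), Dhcr7 and Abcg1 differ by over 20 points, and 11 genes sit at 100% in both conditions.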

How the data were processed

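FPKM values and their lower and upper bounds were deposited by the authors in 1 table that holds both RNA libraries; TopHat, Cufflinks, Cuffdiff and build rn4 appear, unversioned, per the submitters' processing notes, and ribosomal RNA was depleted per the labels' protocols. The copies filed under the 2 RNA samples were identical, and 15 of 30937 loci without a usable estimate were left out. ChIP regions carry a score deposited by the authors, used only to filter within a list; Bowtie was used per the submitters' processing notes, and the region caller and all sequencing depths are not given in the sources used here. Coordinates are those of the files.

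Accessions were matched to symbols through RefSeq (GRCr8, for names and promoters only), and a symbol with several loci was read at the one of highest mean FPKM. Ratios used a pseudocount of 1 FPKM, and calls used 2-fold and non-overlapping bounds. The 2-SD intervals of log2 ratios were propagated from the deposited bounds. H3K4me3 counted within 1 kb of a locus, and H3K36me3 by base pairs on it. Counting and overlap code was tested on simulated data. Python 3.11.15, pandas 2.3.3 and scipy 1.17.1 were used.

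The members, roles and lists were chosen with earlier results of these data known. Named in full are the 10 expressed members with the largest absolute log2 ratio, with Srebf2, Insig2, Abca1 and Abcg1, and up to 4 other pathway genes. The 2 input libraries were not analysed here. Alternatives varied the pseudocount, scaling, FPKM minimum, threshold, choice of locus, window, cover and region score.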

Additional observations from a re-analysis of the deposited data

How the results depend on the processing

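Of the counts, medians and shares recomputed, 38 values stayed within 1.5 times or within the interval of the reported value and 6 moved. Among those that stayed, the H3K36me3 counts changed order between conditions without the lowest-scoring 25% of regions. They were then 27 of 31 members after AngII and 29 in control. The H3K4me3 counts also changed order under that filter, to 30 after AngII and 29 in control, from 30 and 31 as reported. The count at least 2-fold higher was 2 as reported, 4 when centred, 7 with a threshold of 1.5-fold (Idi1, Sqle, Msmo1, Hsd17b7, Insig1, Srebf2 and Soat1) and 1 for members with an interval of their own (Msmo1). The count at least 2-fold lower was 0 as reported, 2 with a pseudocount of 0.1 (Dhcr7 and Abca1) and, by intervals that exclude 0, a rule added after seeing the data, 3 (Abca1, Dhcr7 and Insig2). It was 5 with a threshold of 1.5-fold (Pmvk, Dhcr7, Insig2, Scd and Abca1). No share of all loci is given here at 1.5-fold or for 2-fold calls among loci with an interval of their own. Those counts therefore cannot be read as a result about the members. The median log2 ratio of the members, 0.02 as reported, ranged from -0.06 with an FPKM minimum of 5 to 0.28 when centred. Of the single-gene values 160 stayed within 2 SD or 1.5 times and 1 moved, as Nr1h3 was at -1.55 with a pseudocount of 0.1 against -0.45. That tolerance is wide beside the shifts the settings make, so the tally is no test of robustness. Fdps, for example, went from -0.03 to 0.25 when centred and counted as having stayed, as its interval is -0.86 to 0.81. The median at 0.28 when centred counted as having stayed too. The cause of these shifts was not tested. The width of H3K4me3 at Msmo1 was compared after seeing the data. No paired analysis was possible because neither condition has a replicate, and no library could be left out.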
